A study of Mus musculus with 9 samples.

Results

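Chemokine ligands are small secreted or membrane-anchored proteins that direct leukocytes, and here they are every gene whose only symbol on the array begins with Ccl, Cxcl, Cx3cl or Xcl and ends in a number with at most a letter after it. The rule found 34 of the 19930 genes that the array measures with a probe set of exactly 1 symbol, through 39 of 21762 such probe sets, and used no measured value. Their transcripts were compared in adipose stromal cells (ASCs) of the mouse mammary gland at 3 stages of adult life. Female Balb/c mice gave 3 arrays from nulliparous glands at 8 weeks of age without exposure to males (ASC-N), 3 from day 5 of lactation (ASC-L) and 3 from day 3 of involution (ASC-I), the phase after weaning in which the milk-producing epithelium dies back. ASCs are the cells left after the gland's fat pad is digested with collagenase and hyaluronidase and spun, a mixture of preadipocytes, fibroblasts, adipocytes and other stromal cells. The study's methods describe cultures of low passage, while the labels describe only the separation, and neither says which or how many mice stand behind an array, so every p-value here measures the spread between arrays. No agent or allele differed between the stages.

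Chemokines bind G protein-coupled receptors on leukocytes and fall into CC, CXC, CX3C and XC families by the spacing of their first cysteines. The CC members near the Ccl2 and Ccl3 genes mainly attract monocytes and macrophages, and the CXC members near Cxcl1 mainly attract neutrophils. Fibroblasts and macrophages both make them, and many are switched on through NF-kappaB by interleukin-1 or tumor necrosis factor. In the mammary gland, leukocytes enter in large numbers after weaning and clear dead epithelium and milk.

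The label of adipose stroma was checked on marker genes. Col1a1, the main fibrillar collagen of fibroblasts, lay between 12.63 and 13.36 on the log2 signal scale in the 9 arrays, and Pdgfra, a receptor of fibroblasts and preadipocytes, between 8.86 and 11.44. Pdgfra was lowest in the second replicates of ASC-L and ASC-I, the 2 arrays in which the mean of 22 luminal epithelial markers was highest (8.42 and 7.35, against 5.87 to 6.89 in the other 7). The mean of 31 macrophage markers ran from 5.81 in ASC-N replicate 3 to 8.24 in ASC-I replicate 1. In the same 2 second replicates the mean of 15 basal epithelial markers was 8.71 and 7.63, against 6.42 to 6.97 in the others. That of 12 milk genes was 7.22 and 6.59, against 5.835 to 6.17. The mean of 11 adipocyte markers stayed within 5.97 to 6.26. Adipoq, Plin1 and Lep had means above those of 9.935%, 43.57% and 11.45% of all genes. The means of the neutrophil, T cell, B cell and dendritic cell lists stayed within 4.64 to 5.11, 5.44 to 5.76, 4.34 to 4.59 and 5.13 to 5.34. The mean of 12 endothelial markers was between 5.59 and 5.93 in 6 arrays and stood apart in 3, at 6.95 in the first ASC-N array and at 7.26 and 6.76 in the second replicates of ASC-L and ASC-I. Of the first 3 markers of that list, Pecam1 read 7.99, 8.03 and 7.22 in those 3 arrays and 4.85 to 5.60 in the others. Cdh5 read 8.08, 8.13 and 7.38 against 5.06 to 5.53, and Kdr 6.46, 6.97 and 6.12 against 4.67 to 6.05. Emcn, a surface sialomucin of endothelium further down the list, read 8.19, 8.83 and 7.98 against 3.91 to 4.84. Eng and Vwf did not follow. In the first ASC-N array Eng was lowest of the 9 (8.99) and Vwf read 5.44 (5.32 to 5.67 over all 9).

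Of the 34 ligand genes, 3 were past the limits in ASC-Ls compared with ASC-Is, and 0 in each of the other 2 comparisons. The limits are those of the study's own lists, an unadjusted p under 0.05 in limma and a change of at least 1.5-fold. Ccl3, Ccl6 and Cxcl2 were all lower in ASC-Ls. Over all 19930 genes, 0.482% were past the same limits in that comparison and 0.406% were past them in the lower direction. Of the ligands and of all genes, 0 had a Benjamini-Hochberg adjusted p under 0.05 in any of the 3 comparisons (limma), so the 3 ligands are given as values past an unadjusted limit. Of all genes, 1.8% had an unadjusted p under 0.05 between ASC-Ls and ASC-Is.

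**Figure D1:**
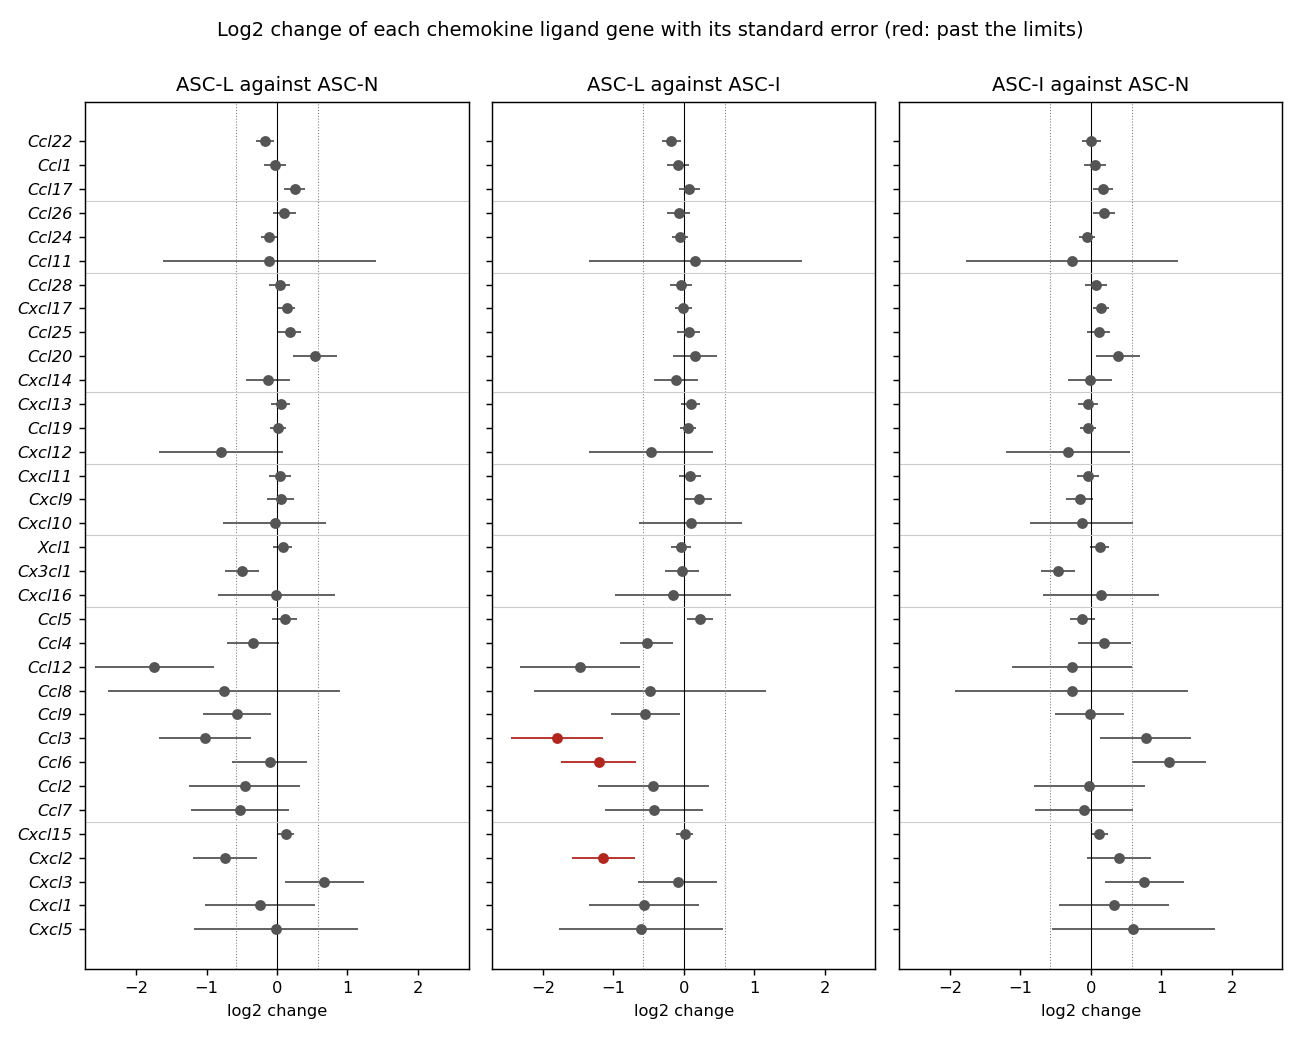
Log2 change (horizontal axes) of each of the 34 chemokine ligand genes in the 3 comparisons, with its standard error from limma as a bar, ordered by role. Dotted lines mark a 1.5-fold change, and the 3 red points, all in the comparison of ASC-L with ASC-I, are Ccl3 (-1.80), Ccl6 (-1.21) and Cxcl2 (-1.14).

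Ccl3 encodes macrophage inflammatory protein 1-alpha, a ligand of Ccr1 that attracts monocytes, macrophages and T cells. Its log2 signal in replicates 1, 2 and 3 was 9.97, 10.12 and 7.75 in ASC-N, 7.78, 8.15 and 8.83 in ASC-L, and 10.81, 9.13 and 10.23 in ASC-I. All 3 ASC-I arrays were above all 3 ASC-L arrays, while the ASC-N arrays were split, with replicates 1 and 2 near ASC-I and replicate 3 below every other array. Ccl3 fell by 1.80 on the log2 scale from ASC-I to ASC-L (standard error 0.65, 3.49-fold, unadjusted p = 0.0219, limma). In bulk RNA, fewer cells of a type and less RNA per cell cannot be told apart.

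Ccl6, a CC chemokine of rodents that attracts monocytes and macrophages, read 10.10, 9.66 and 7.80 in ASC-N, 9.28, 8.94 and 9.02 in ASC-L, and 10.80, 9.76 and 10.31 in ASC-I. The ASC-L arrays had an SD of 0.18 and lay below every ASC-I array, and the lowest value of the 9 was again ASC-N replicate 3. Ccl6 fell by 1.21 from ASC-I to ASC-L (standard error 0.53, 2.32-fold, unadjusted p = 0.0472, limma). Its change of 1.11 between ASC-I and ASC-N was not past the limits (unadjusted p = 0.0652, limma).

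Cxcl2, also called macrophage inflammatory protein 2, attracts neutrophils through Cxcr2. Its signal was 7.04, 7.33 and 6.82 in ASC-N, 5.69, 6.04 and 7.24 in ASC-L, and 8.18, 6.65 and 7.57 in ASC-I. Here the ASC-L and ASC-I arrays overlapped, because ASC-L replicate 3 was above ASC-I replicate 2. Cxcl2 fell by 1.14 from ASC-I to ASC-L (standard error 0.45, 2.21-fold, unadjusted p = 0.033, limma).

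These 3 calls rested on particular arrays. Without replicate 1 of ASC-L, or without replicate 1 or 3 of ASC-I, 0 of the 34 ligands were past the limits between ASC-Ls and ASC-Is (1.66%, 0.181% and 0.306% of all genes in the same settings), and without ASC-L replicate 2 the only one was Ccl3 (0.492%). Without ASC-I replicate 2 there were 4, Ccl12 being the added gene, and the share of all genes rose to 1.59%. The direction of all 3 was kept in each of 18 alternative settings, and Ccl3 was past the limits in 15 of them, Cxcl2 in 13 and Ccl6 in 7. Across those settings the change ranged from -2.27 to -1.42 for Ccl3, from -1.60 to -0.78 for Cxcl2 and from -1.48 to -0.96 for Ccl6.

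**Figure D2:**
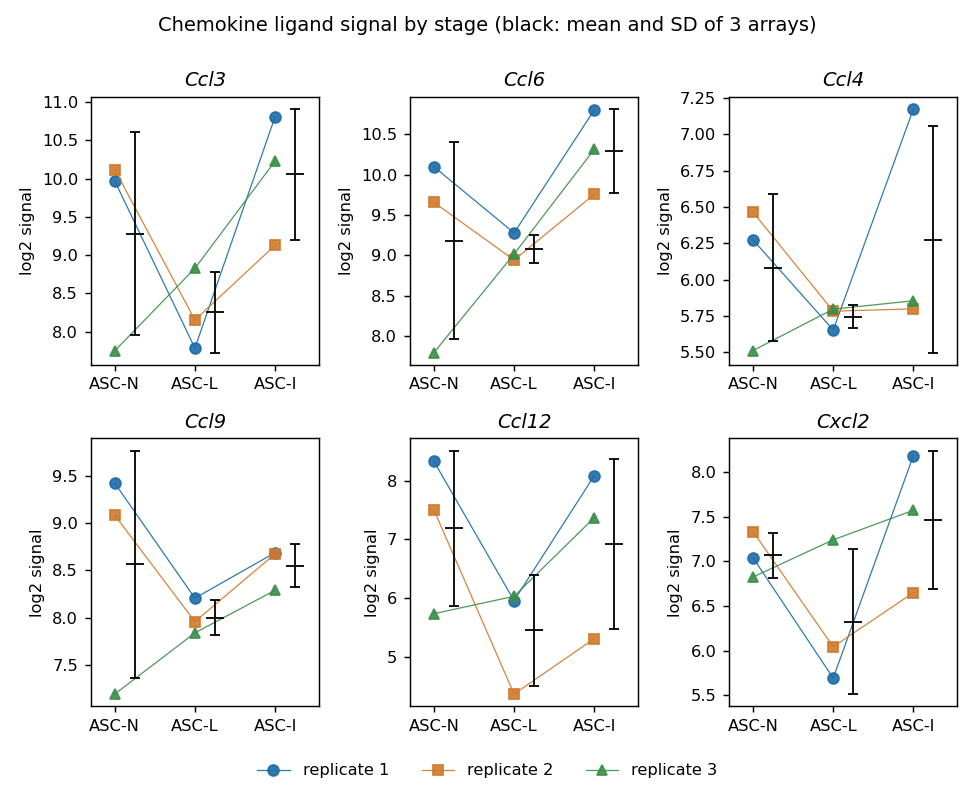
Log2 signal (vertical axes) of 6 chemokine ligand genes in the 3 ASC-N, 3 ASC-L and 3 ASC-I arrays, with arrays of the same replicate number joined and the mean and SD of each stage in black. In Ccl3, Ccl6, Ccl4 and Ccl9 every ASC-L array lies below every ASC-I array, and ASC-N replicate 3 is the lowest of its stage in all 6.

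The DNA just before the start of the 3 genes is shown because they were the ligands past the limits, together with that of Cxcl1 and Cxcl3, neighbors of Cxcl2 on chromosome 5 that were not. The sequences are the 120 bases upstream of the start in RefSeq's annotation of GRCm38.p6, read on the gene's strand, and capitals mark a match to the kappaB consensus, the motif bound by NF-kappaB dimers, on either strand. Ccl3 is at chr11:83649379-83649498 (minus strand), Ccl6 at chr11:83593088-83593207 (minus strand), Cxcl1 at chr5:90891125-90891244, Cxcl2 at chr5:90903779-90903898 and Cxcl3 at chr5:90785981-90786100 (plus strand for these 3).
Ccl3: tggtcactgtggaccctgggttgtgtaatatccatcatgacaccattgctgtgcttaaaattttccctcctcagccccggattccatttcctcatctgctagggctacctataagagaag
Ccl6: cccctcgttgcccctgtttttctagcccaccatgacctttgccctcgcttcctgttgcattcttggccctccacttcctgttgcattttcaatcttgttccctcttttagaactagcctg
Cxcl1: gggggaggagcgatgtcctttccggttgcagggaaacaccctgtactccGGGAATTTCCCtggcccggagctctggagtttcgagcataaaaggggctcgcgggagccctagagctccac
Cxcl2: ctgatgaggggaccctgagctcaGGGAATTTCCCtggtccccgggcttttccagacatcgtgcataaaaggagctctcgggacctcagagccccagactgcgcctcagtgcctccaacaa
Cxcl3: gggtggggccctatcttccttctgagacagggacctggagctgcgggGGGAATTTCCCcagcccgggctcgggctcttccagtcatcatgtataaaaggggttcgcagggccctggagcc
The 3 CXC genes hold the same 11 letters, GGGAATTTCCC, a match on each strand shifted by 1 base, which start 71, 97 and 73 bases before Cxcl1, Cxcl2 and Cxcl3. Ccl3 and Ccl6 hold no match in the 250 bases before the start. The table held 23 of the 34 ligands, and 7 of the 23 (30.4%) had a kappaB match in those 250 bases (Ccl1, Ccl9, Ccl20, Cxcl1, Cxcl2, Cxcl3 and Cxcl10), against 8.23% of 27025 genes. TATAAA, a core of the TATA box, was found on either strand before 9 of the 23 (39.1%) and before 14.3% of all genes. A match is a run of letters and not a measured site.

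The monocyte- and macrophage-attracting CC chemokines are 9 of the ligands: Ccl2, Ccl3, Ccl4, Ccl5, Ccl6, Ccl7, Ccl8, Ccl9 and Ccl12. Between ASC-Ls and ASC-Is, 8 of the 9 had a lower mean in ASC-Ls, 2 of them (Ccl3 and Ccl6) past the limits, and the median difference of the group was -0.53 on the log2 scale. The median of all genes was 0.01, and 48% of all genes were lower. The exception was Ccl5 (RANTES), a T cell and monocyte attractant, whose difference was 0.23. In Ccl3, Ccl4, Ccl6 and Ccl9 every ASC-L array was below every ASC-I array, and these were the 4 of 34 ligands whose arrays did not overlap in this comparison (5.56% of all genes did not).

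Ccl4 (macrophage inflammatory protein 1-beta), an attractant of monocytes and T cells, read 6.27, 6.46 and 5.51 in ASC-N, 5.65, 5.78 and 5.80 in ASC-L, and 7.17, 5.80 and 5.85 in ASC-I. ASC-I replicate 1 stood apart from the other 2 ASC-I arrays, which were just above the highest ASC-L array, and the difference of -0.53 was not past the limits (unadjusted p = 0.186, limma). Ccl9, a Ccr1 ligand of rodents, read 9.42, 9.08 and 7.19 in ASC-N, 8.21, 7.96 and 7.84 in ASC-L, and 8.69, 8.68 and 8.29 in ASC-I. Its ASC-L and ASC-I arrays did not overlap, but the difference of -0.55 was not past the limits (unadjusted p = 0.288, limma). ASC-N replicate 3 was again the lowest array.

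Ccl12, the mouse chemokine MCP-5 that acts through Ccr2, had a spread of several log2 units. It read 8.33, 7.50 and 5.73 in ASC-N, 5.96, 4.36 and 6.03 in ASC-L, and 8.09, 5.31 and 7.37 in ASC-I. Its ASC-L mean was the lowest of the 3 stages, by -1.74 against ASC-N (unadjusted p = 0.0703) and by -1.47 against ASC-I (unadjusted p = 0.116, limma), and the arrays overlapped in both.

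Between ASC-Ls and ASC-Ns, the same 8 of 9 CC genes had a lower mean in ASC-Ls (48.3% of all genes), with a group median of -0.52, and 0 were past the limits. Over all 34 ligands 20 were lower and 14 higher, with a median of -0.03 against 0.01 over all genes, and 0 of 34 were past the limits or had an unadjusted p under 0.05 (0.627% and 3.64% of all genes, limma). The lowest unadjusted p was that of Ccl12. Ccl17, a ligand of Ccr4 on T cells, was the ligand whose arrays did not overlap, being higher in ASC-L (8.59% of all genes did not overlap). Its signal was low, with a mean above that of 31.9% of all genes. The count changed with the arrays left out, as did that of all genes. Without ASC-N replicate 3, 6 ligands were past the limits, namely Ccl3, Ccl6, Ccl9, Ccl12 and Cx3cl1 as lower and Ccl20 as higher in ASC-Ls, while the share of all genes rose from 0.627% to 1.77%. Leaving out ASC-L replicate 1 gave 1 (Ccl20, with 2.03% of all genes), ASC-L replicate 2 gave 1 (Cx3cl1, with 0.617%) and ASC-L replicate 3 gave 2 (Cxcl2 and Cxcl10, with 1.15%). Leaving out ASC-I replicate 2, which enters through the shared estimate of the spread, gave 1 (Ccl12, with 0.758%).

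Between ASC-Is and ASC-Ns, 18 ligands had a higher and 16 a lower mean in ASC-Is, with a median of 0.03, and 0 of 34 were past the limits or had an unadjusted p under 0.05 (0.251% and 1.56% of all genes, limma). The arrays of Ccl26 and Cxcl17 did not overlap, both higher in ASC-I, with differences of 0.18 and 0.14 (6.54% of all genes did not overlap). Both signals were low, with means above those of 20.04% and 33.57% of all genes. Without ASC-N replicate 3 the ligands past the limits were 2, Ccl9 and Cx3cl1, both lower in ASC-Is (1.11% of all genes). There was 1 without ASC-N replicate 1 (Ccl6, with 0.161% of all genes), without ASC-I replicate 1 (Cxcl3, with 0.201%) or without ASC-I replicate 2 (Ccl6, with 0.416%). Each pair of comparisons shares the arrays of 1 stage, so their values are not independent of each other.

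Macrophage markers were set beside the CC chemokines. Of the 31 measured macrophage markers, none of them a chemokine, 29 had a lower mean in ASC-Ls than in ASC-Is, 15 were past the limits and 22 had arrays that did not overlap. The shares of all genes were 48%, 0.482% and 5.56%. The mean of the list in replicates 1, 2 and 3 was 7.57, 7.46 and 5.81 in ASC-N, 6.34, 6.33 and 6.18 in ASC-L, and 8.24, 6.87 and 7.23 in ASC-I. Adgre1, which encodes F4/80, read 5.37 to 5.52 in ASC-L and 5.63 to 8.02 in ASC-I, Cd68 8.10 to 8.26 and 8.63 to 10.42, and Csf1r, the receptor that macrophages need for survival, 6.09 to 6.60 and 6.74 to 8.10. Between ASC-Ls and ASC-Ns 28 of 31 markers were lower, with 1 past the limits (Csf1r), against 48.3% and 0.627% of all genes.

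Across the 9 arrays the signal of Ccl3 followed the mean of the macrophage list with a Pearson r of 0.936 (exact permutation p = 0.000504, adjusted p = 0.015) and a Spearman rho of 0.867 (exact permutation p = 0.00451, adjusted p = 0.0613). Ccl6 had an r of 0.915 (exact permutation p = 0.000661, adjusted p = 0.015) and a rho of 0.9 (exact permutation p = 0.00203, adjusted p = 0.046). For Ccl4, r was 0.902 (exact permutation p = 0.000127, adjusted p = 0.00862) and rho 0.917 (exact permutation p = 0.00131, adjusted p = 0.0446). The adjustment covered 68 relations, those of the 34 ligands with this list and with the luminal epithelial list, and all tests were two-sided over all pairings of the arrays. Each test treated the 9 arrays as exchangeable. It took no account of stage or shared replicate number, so these p-values may be too small. Ccl9 had an adjusted p under 0.05 by rank only. Its r was 0.812 (exact permutation p = 0.00771, adjusted p = 0.105) and its rho 0.933 (exact permutation p = 0.00075, adjusted p = 0.0446). Without the 2 arrays farthest from the median of the list, ASC-N replicate 3 and ASC-I replicate 1, the r of Ccl3, Ccl6, Ccl4 and Ccl9 was 0.889, 0.856, 0.813 and 0.888.

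Each stage and each replicate number holds 3 arrays, too few for a relation of its own. As a description, the deviations from the stage means correlated at 0.889 for Ccl3, 0.952 for Ccl6, 0.897 for Ccl4 and 0.823 for Ccl9, and the deviations from the means of the replicate numbers at 0.992, 0.886, 0.863 and 0.757. Cxcl2 had an r of 0.681 with the list (exact permutation p = 0.0442, adjusted p = 0.273), and Ccl12 one of 0.807 (exact permutation p = 0.0104, adjusted p = 0.118). The other 4 monocyte-attracting CC genes, Ccl2, Ccl5, Ccl7 and Ccl8, had a negative r with the list, from -0.397 to -0.23 (exact permutation p from 0.303 to 0.547, adjusted p from 0.733 to 0.786), and a rho from -0.4 to -0.15 (exact permutation p from 0.291 to 0.708, adjusted p from 0.733 to 0.86). The part of macrophages in the lower Ccl3, Ccl6 and Cxcl2 of ASC-Ls was not tested.

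**Figure D3:**
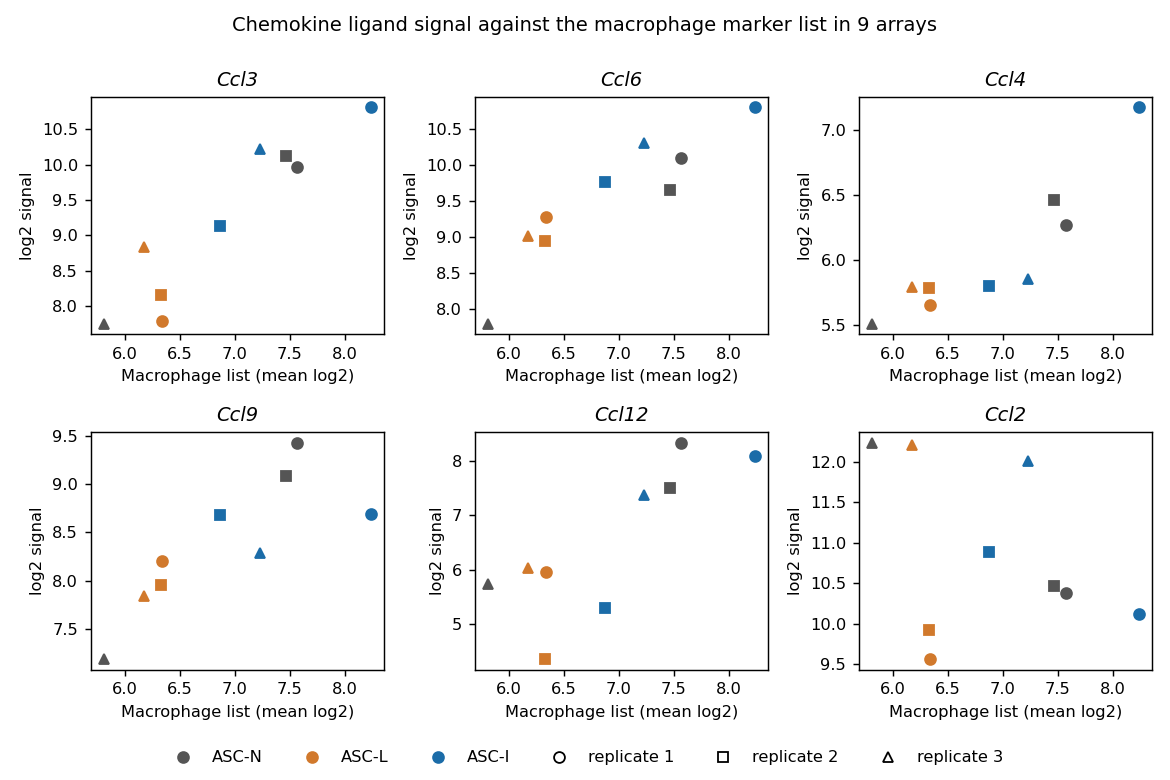
Log2 signal of 6 chemokine ligand genes (vertical axes) against the mean log2 signal of 31 macrophage markers (horizontal axes), 1 point for each of the 9 arrays, colored by stage and shaped by replicate number. Ccl3, Ccl6, Ccl4 and Ccl9 are higher where the list is higher, with ASC-N replicate 3 lowest on both axes, while the 3 points of Ccl2 above 12 are the replicate 3 arrays.

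A second set of ligands varied more between replicate numbers than between stages, as did the median gene of the array. Ccl2 (MCP-1), the main Ccr2 ligand that brings monocytes out of blood, read 10.38, 10.47 and 12.23 in ASC-N, 9.57, 9.93 and 12.21 in ASC-L, and 10.12, 10.88 and 12.01 in ASC-I. Ccl7 (MCP-3), its neighbor, read 10.55, 10.76 and 12.24, then 10.09, 9.74 and 12.15, then 10.78, 10.50 and 11.98. In both, the replicate 3 array of each stage was above the other 6 arrays, and these arrays ranged from 12.01 to 12.23 for Ccl2 and from 11.98 to 12.24 for Ccl7.

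Ccl8 (MCP-2) read 6.48, 6.31 and 9.97 in ASC-N, 5.59, 4.50 and 10.41 in ASC-L, and 6.48, 5.89 and 9.57 in ASC-I. Ccl11 (eotaxin), which attracts eosinophils through Ccr3, read 8.47, 7.21 and 11.35, then 6.63, 8.25 and 11.82, then 7.14, 8.28 and 10.80. Ccl2, Ccl7, Ccl11, Ccl12, Ccl8 and Ccl1 lie next to each other on chromosome 11 among the ligands, and of these 6 Ccl12 and Ccl1 were not highest in replicate 3 of every stage. The other 2 eosinophil attractants, Ccl24 and Ccl26, had differences of 0.18 or less in every comparison.

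Of the 5 neutrophil-attracting CXC genes, Cxcl1, Cxcl5 and Cxcl15 were highest in replicate 3 of every stage, and Cxcl2 and Cxcl3 were not. The signal of Cxcl15 was very low, with a mean of 3.72 that was above that of 6.56% of all genes. Cxcl1 (KC), a Cxcr2 ligand, read 9.03, 8.78 and 10.99 in ASC-N, 8.18, 9.14 and 10.75 in ASC-L, and 9.18, 9.64 and 10.97 in ASC-I. Cxcl5, another Cxcr2 ligand, read 9.56, 8.30 and 11.79, then 8.15, 9.64 and 11.83, then 8.90, 10.54 and 12.01. In both genes every replicate 3 array was above the other 6.

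Cxcl12 (SDF-1), the stromal ligand of Cxcr4 that retains hematopoietic and other cells in their niche, read 8.19, 8.02 and 9.98 in ASC-N, 7.11, 7.49 and 9.20 in ASC-L, and 7.21, 7.74 and 10.26 in ASC-I. Replicate 3 was highest in each stage, and within each replicate number the ASC-L array was below both others.

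Over the 34 ligands, replicate 3 was the highest array in all 3 stages for 9 (26.5%: Ccl2, Ccl7, Ccl8, Ccl11, Ccl20, Cxcl1, Cxcl5, Cxcl12 and Cxcl15), against 7.96% of all genes. The corresponding numbers for replicates 1 and 2 were 2 and 2 ligands, with 4.4% and 12.6% of all genes. The replicate number held 80.9% to 92.7% of the variance over the 9 arrays for Ccl8, Ccl2, Ccl11, Cxcl1, Ccl7, Cxcl12 and Cxcl5, and the stage 0.37% to 8.64%. For Ccl3, Cxcl2 and Ccl6 the stage held 47.0%, 43.3% and 42.9%, and the number 5.11%, 9.33% and 24.96%. The median ligand had 43.8% in the number and 16.3% in the stage, and the median of all genes 36.5% and 15.9%. The number held over 50% of the variance for 12 ligands (35.3%) and for 33.4% of all genes, a similar share. The stage held over 50% for 0 ligands and for 7.71% of all genes. The share of all genes at 80.9% or more in the number was not counted. The SD over the 9 arrays was above 1 on the log2 scale for 9 ligands (26.5%) and for 1.36% of all genes. The labels call the replicates biological and do not say what a shared number stands for.

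**Figure D4:**
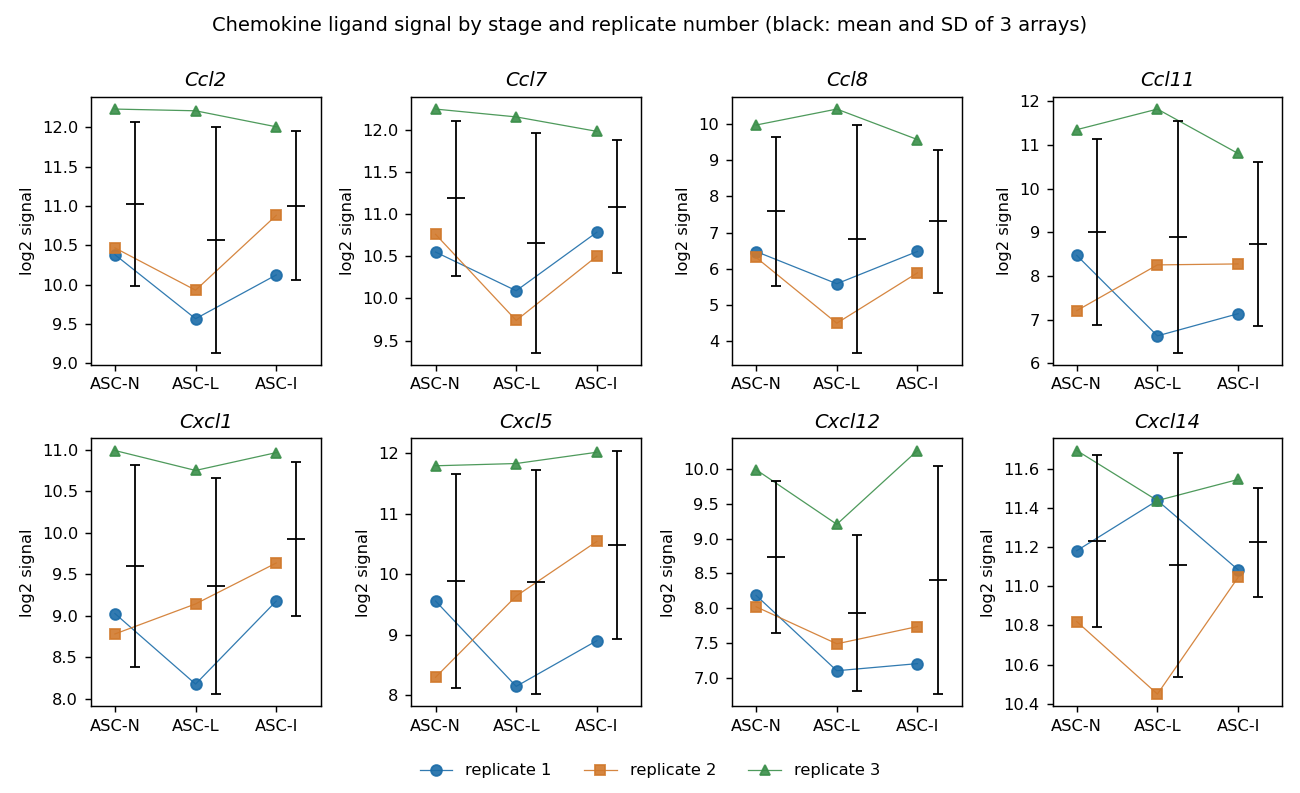
Log2 signal (vertical axes) of 8 chemokine ligand genes in the 9 arrays, with arrays of the same replicate number joined and the mean and SD of each stage in black. Replicate 3 is the highest array of every stage in all but Cxcl14, where ASC-L replicates 1 and 3 are level at 11.44.

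**Figure D5:**
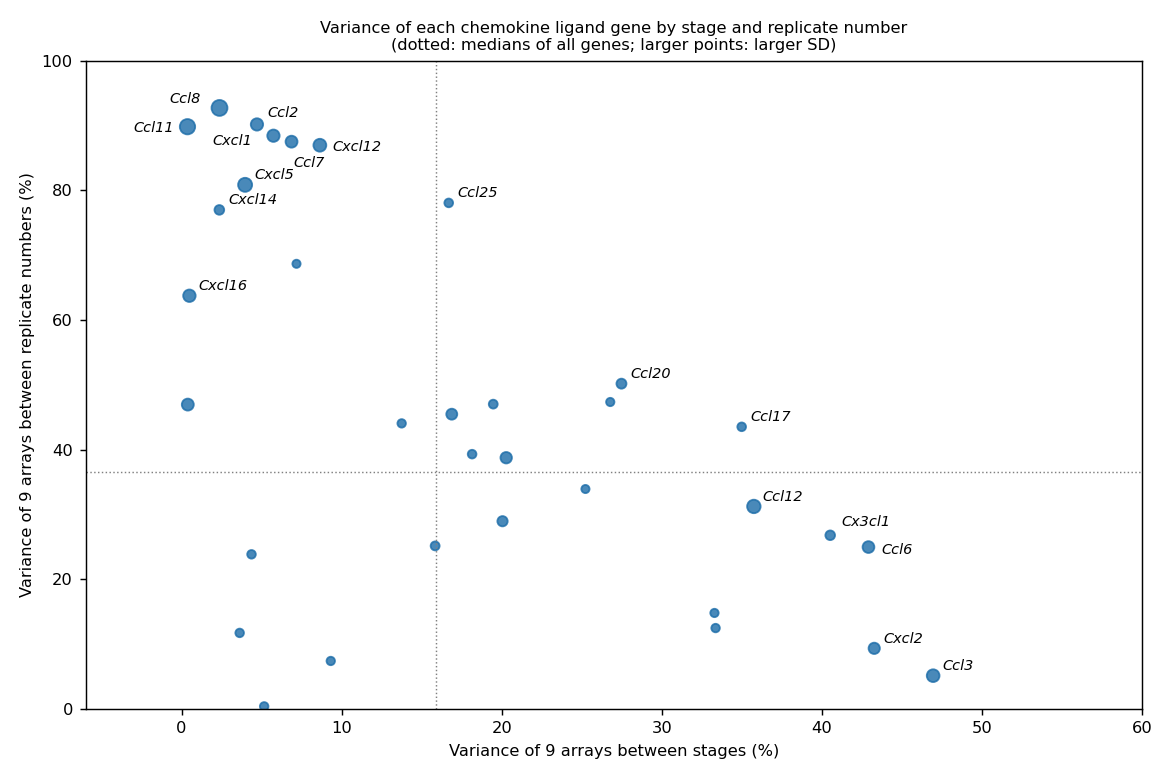
Share of the variance over the 9 arrays that lies between stages (horizontal axis, percent) and between replicate numbers (vertical axis, percent), 1 point for each of the 34 chemokine ligand genes. The 7 genes Ccl8, Ccl2, Ccl11, Cxcl1, Ccl7, Cxcl12 and Cxcl5 lie above 80% on the vertical axis, and Ccl3, Cxcl2 and Ccl6 farthest right at 47.0%, 43.3% and 42.9%.

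Setting arrays of the same number side by side, 9 ligands were lower in ASC-L than in ASC-I in all 3 numbers (Ccl3, Ccl4, Ccl6, Ccl9, Ccl12, Cxcl1, Cxcl2, Cxcl5 and Cxcl12, against 12.7% of all genes) and 3 were higher (Ccl5, Ccl20 and Ccl25, against 13.5%). Same-numbered ASC-L and ASC-I arrays deviated together from their stage means, so the number was also fitted as a replicate block. Between these 2 stages the block left 3 ligands past the limits, again Ccl3, Ccl6 and Cxcl2 (1.04% of all genes with the block). Against ASC-N, the block gave 2 ligands lower in ASC-L in place of 0, Ccl12 (unadjusted p = 0.0295) and Cxcl12 (-0.80, standard error 0.23, unadjusted p = 0.00825, limma), with 1.48% of all genes. It gave 1 ligand higher in ASC-I in place of 0, Ccl6 (unadjusted p = 0.0332, limma), with 0.452% of all genes. Same-numbered arrays did not all deviate together in these latter comparisons, so the number may not pair them.

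Among the remaining neutrophil attractants, Cxcl3, a Cxcr2 ligand, read 7.05, 6.14 and 7.54 in ASC-N, 6.75, 8.17 and 7.82 in ASC-L, and 6.54, 8.07 and 8.40 in ASC-I, with the stages overlapping. All 5 members (Cxcl1, Cxcl2, Cxcl3, Cxcl5 and the very low Cxcl15) had a higher mean in ASC-I than in ASC-N, with a median of 0.40 and 0 past the limits. Of all genes 50.9% were higher. Between ASC-L and ASC-I 4 of the 5 had a lower mean in ASC-L, with a median of -0.57, and all 5 did under quantile or cyclic loess normalization, where Cxcl15 (lungkine, a difference of 0.01) changed sign.

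Cxcl9, Cxcl10 and Cxcl11 are the interferon-induced ligands of Cxcr3, which attract activated T cells. Cxcl10 read 6.06, 6.71 and 5.97 in ASC-N, 5.09, 5.40 and 8.14 in ASC-L, and 5.39, 6.11 and 6.84 in ASC-I. ASC-L replicate 3 was the highest of the 9 and the other 2 ASC-L arrays were among the 3 lowest, and the stage means differed by 0.13 at most. Cxcl9 read 5.61, 5.05 and 5.15, then 5.26, 5.09 and 5.61, then 4.93, 5.10 and 5.29, and Cxcl11 stayed between 4.49 and 4.96.

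Of the membrane-bound ligands, Cx3cl1 (fractalkine), the adhesive ligand of Cx3cr1, read 7.21, 6.84 and 6.53 in ASC-N, 6.18, 6.88 and 6.03 in ASC-L, and 6.26, 6.55 and 6.36 in ASC-I. Its mean was lower than in ASC-N in both other stages, by -0.50 (unadjusted p = 0.0725) and -0.47 (unadjusted p = 0.0858, limma), and the arrays overlapped through ASC-L replicate 2, ASC-I replicate 2 and ASC-N replicate 3. In each stage Cx3cl1 was highest in the array with the highest mean of the 12 endothelial markers (replicate 1 of ASC-N and replicate 2 of ASC-L and of ASC-I). The ASC-L and ASC-I arrays among these also had the highest mean of the 22 luminal epithelial markers. With that list Cx3cl1 had an r of 0.608 (exact permutation p = 0.0818, adjusted p = 0.401), and deviations from the stage means correlated at 0.896. The part of endothelial or epithelial cells in Cx3cl1 was not tested. Cxcl16, a scavenger receptor and ligand of Cxcr6, read 7.11, 7.02 and 8.72 in ASC-N, 5.62, 8.71 and 8.50 in ASC-L, and 7.28, 7.34 and 8.67 in ASC-I, with an SD of 1.73 in ASC-L. Xcl1 (lymphotactin) stayed between 4.59 and 5.07.

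Cxcl14, a chemokine made by epithelium and stroma, read 11.18, 10.82 and 11.70 in ASC-N, 11.44, 10.45 and 11.44 in ASC-L, and 11.08, 11.05 and 11.55 in ASC-I. Replicate 2 was the lowest array of every stage, and the signal was lower where the mean of the 22 luminal epithelial markers was higher (r = -0.876, exact permutation p = 0.00281, adjusted p = 0.0478, and rho = -0.883, exact permutation p = 0.00308, adjusted p = 0.0523). Without the second replicates of both ASC-L and ASC-I, which hold the highest epithelial signal, r was -0.739. The part of epithelial cells in it was not tested.

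Ccl20, the ligand of Ccr6, read 5.51, 5.31 and 6.16 in ASC-N, 5.62, 6.46 and 6.51 in ASC-L, and 5.58, 6.27 and 6.27 in ASC-I, and within each replicate number both later stages were above ASC-N. Its difference between ASC-L and ASC-N was 0.54 (unadjusted p = 0.121, limma). Ccl17 read 5.15, 5.16 and 4.85, then 5.21, 5.41 and 5.29, then 5.13, 5.48 and 5.07, a difference of 0.25 between ASC-L and ASC-N. The other members, Ccl1, Ccl19, Ccl22, Ccl25, Ccl28, Cxcl13 and Cxcl17, had differences between -0.18 and 0.18 in all 3 comparisons.

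Values of 23 chemokine receptors were compared in the same way. Ccrl2, an atypical receptor that binds chemerin, was past the limits between ASC-Ls and ASC-Is (0.482% of all genes were). It read 5.55, 6.48 and 5.69 in ASC-N, 5.32, 5.33 and 5.47 in ASC-L, and 8.20, 5.87 and 6.57 in ASC-I, all ASC-L arrays being below all others. Ccrl2 fell by 1.51 from ASC-I to ASC-L (standard error 0.51, unadjusted p = 0.0164, limma) and was past the limits in each of the 18 settings.

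With the replicate block 3 receptors were past the limits between these stages (1.04% of all genes), as Ccr1 (-1.38, unadjusted p = 0.0163), the receptor of Ccl3 and Ccl9, and Cxcr4 (-1.17, unadjusted p = 0.0193, limma), the receptor of Cxcl12, joined Ccrl2. The same 3 were past them without ASC-N replicate 3 (0.697% of all genes), and Ccrl2 and Cxcr4 without ASC-L replicate 2 (0.492%). Ccr1 read 6.62, 6.34 and 4.07 in ASC-N, 4.74, 5.10 and 4.32 in ASC-L and 7.06, 5.59 and 5.63 in ASC-I, with no overlap between the latter stages. Cxcr4 read 8.32, 7.35 and 5.85 in ASC-N, 6.59, 7.53 and 6.16 in ASC-L and 8.68, 7.74 and 7.37 in ASC-I, where ASC-L replicate 2 was above ASC-I replicate 3. Ccr1, Cxcr4 and Ccrl2 were highest of the 9 arrays in ASC-I replicate 1, as was the mean of the macrophage markers, and Ccr1 and Cxcr4 were, like it, lowest in ASC-N replicate 3, and the part of macrophages in the receptor values was not tested.

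Cx3cr1, the fractalkine receptor of monocytes and macrophages, was the receptor past the limits when ASC-Ls were compared with ASC-Ns (0.627% of all genes). It read 6.61, 6.74 and 5.83 in ASC-N, 5.80, 5.56 and 5.74 in ASC-L, and 6.09, 5.91 and 5.57 in ASC-I, all ASC-L arrays being below all ASC-N arrays. Cx3cr1 fell by 0.70 from ASC-N to ASC-L (standard error 0.24, unadjusted p = 0.0176, limma). It was not past the limits without replicate 1 or 2 of ASC-N or replicate 2 of ASC-L, and without ASC-N replicate 3 there were 2 receptors, Ccr1 being the other (1.77% of all genes). As for the macrophage list, the lowest Cx3cr1 array within ASC-N was replicate 3 and the highest within ASC-I was replicate 1. Within ASC-I the lowest was replicate 3 for Cx3cr1 and replicate 2 for the list. Cx3cr1 was lower in ASC-I than in ASC-N in all 3 replicate numbers, while 28 of the 31 macrophage markers had a higher mean in ASC-I. Between ASC-Is and ASC-Ns 0 of 23 receptors were past the limits or had an unadjusted p under 0.05 (0.251% and 1.56% of all genes, limma). There was 1 past the limits without replicate 3 of ASC-N or replicate 1 of ASC-I (Cx3cr1, with 1.11% and 0.201% of all genes), or without replicate 2 of ASC-I (Ccrl2, with 0.416%). Ccr2, the receptor of Ccl2, Ccl7 and Ccl12, had stage means of 4.03 to 4.17, and Cxcr2, the receptor of Cxcl1, Cxcl2, Cxcl3 and Cxcl5, of 3.55 to 3.67. Both signals were low, with means above those of 11.3% and 5.38% of all genes.

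Of 21 measured inducers of chemokine transcription, Il1b, which encodes interleukin-1 beta, was the gene past the limits. It read 6.54, 6.24 and 5.21 in ASC-N, 5.30, 7.15 and 5.74 in ASC-L, and 6.996, 7.58 and 7.09 in ASC-I. All ASC-I arrays were above all ASC-N arrays and overlapped with ASC-L through its replicate 2. Il1b fell by 1.16 from ASC-I to ASC-L (standard error 0.49, unadjusted p = 0.0412) and was higher by 1.23 in ASC-I than in ASC-N (standard error 0.49, unadjusted p = 0.0329, limma). Of all genes, 0.482% and 0.251% were past the limits in these comparisons. The first difference of Il1b was past the limits in 10 and the second in 15 of 18 settings. The second was lost without replicate 3 of ASC-N or replicate 2 or 3 of ASC-I, and the first without replicate 2 of ASC-N, replicate 1 or 3 of ASC-L, or any 1 replicate of ASC-I. Il1b was lowest of the 9 in ASC-N replicate 3, as was the macrophage list, but highest in ASC-I replicate 2 and, within ASC-L, in replicate 2, the arrays of highest epithelial signal. Without those 2 arrays both Il1b differences kept their direction and were past the limits. Of the 21 inducers, Nfkbia, Nfkbiz, Nfkb2, Relb, Irf1, Irf7, Tlr2, Tlr4 and Ifngr1 were highest in replicate 3 of every stage, and the others were not. Of all genes 7.96% were. A relation of these genes to the ligands highest in replicate 3 was not tested.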

How the data were processed

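Total RNA of 9 ASC preparations was hybridized to Affymetrix Mouse Gene 1.0 ST arrays. The authors deposited log2 signals per probe set, already normalized between arrays; the study's methods name robust multi-array average and the submitters' notes GCRMA and limma, without versions. Array medians were 5.93 to 6.00. The methods' filter on detection was not used here, and scan dates and slides were not analysed here.

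Probe sets with exactly 1 symbol were averaged per gene (21762 probe sets, 19930 genes), and 1621 with several symbols and 4965 with none were left out. Each gene was fitted in limma 3.58.1 under R 4.3.3, with 1 mean for each stage, all 9 arrays and moderated variances (2.91 prior degrees of freedom), with Benjamini-Hochberg adjustment over all genes. The fit was also run on simulated data with independent arrays. These held no effect of replicate number, unlike the data here, so that run could not assess such an effect. Relations across arrays used exact two-sided permutation tests, which took no account of stage or replicate number. With 3 arrays per stage, their number limits the precision.

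The ligands, the role, receptor, inducer and marker lists and the limits were chosen with earlier results of these data known. Values in every array are given for ligands past the limits, for the member of highest signal and of largest change in each role group, and for ligands whose arrays did not overlap at 1.5-fold or more. Values in every array of Ccl2, Ccl4, Ccl8, Ccl9, Ccl12, Cxcl1 and Cxcl3, and of Ccr1 and Cxcr4, were added after they were seen. Receptors and inducers were named where past the limits.

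Replicate numbers come from the labels. The deviations of same-numbered arrays from their stage means correlated at 0.47, 0.73 and 0.46 between ASC-L and ASC-I, so the numbers were taken to pair these, but at -0.08, 0.40 and 0.45 between ASC-L and ASC-N and at 0.07, 0.43 and 0.50 between ASC-I and ASC-N. Alternatives were other normalizations, filters on low signal or variation, single probe sets, another prior, only the stages compared, array weights, the block, and arrays left out.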

Additional observations from a re-analysis of the deposited data

How the results depend on the processing

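The counts of ligands past the limits were 0, 3 and 0, for ASC-L with ASC-N, ASC-L with ASC-I and ASC-I with ASC-N, in that order, and those of receptors 1, 1 and 0. Of 10 alternatives other than leaving out 1 array, 6, 10 and 8 kept the ligand counts within 1.5 times and 8, 7 and 8 the receptor counts. Array weights gave 4 ligands in the first comparison and 1 in the last, and 2, 3 and 2 receptors, with 1.56%, 0.712% and 0.938% of all genes past the limits against 0.627%, 0.482% and 0.251%. Fitting only the stages compared gave 1 ligand in the first comparison and 3 receptors in the second (0.702% and 0.602% of all genes). Without both arrays of high epithelial signal there was 1 ligand in the first comparison, and the receptors were 0 in the first and 1 in the last (0.773% and 0.723% of all genes in these). With the replicate block there were 2, 3 and 1 ligands, and 3 receptors in the second comparison (1.48%, 1.04% and 0.452% of all genes). The block changed no other count of ligands or receptors. Leaving out 1 array at a time gave 0 to 6, 0 to 4 and 0 to 2 ligands, and 0 to 2, 1 to 3 and 0 to 1 receptors, with 0.401% to 2.03%, 0.181% to 1.66% and 0.161% to 1.11% of all genes. The cause of these shifts was not tested.

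Ccl6 missed the limits between ASC-L and ASC-I under quantile normalization (unadjusted p = 0.0526), cyclic loess (unadjusted p = 0.0526), the low-signal filter (unadjusted p = 0.0512), the trended robust prior (unadjusted p = 0.0585) and with the 2 epithelial-rich arrays left out (unadjusted p = 0.0688), and Cxcl2 with only the stages compared (unadjusted p = 0.0597, all limma). Under quantile and cyclic loess normalization 24 of 34 ligands were lower in ASC-L than in ASC-I, against 23, and 21 and 23 were lower than in ASC-N, against 20. The number of arrays, 3 per stage, limits the precision.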

Other observations

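Probe sets that carry several symbols were not counted as members. The 4 probe sets shared by the Ccl21 genes, whose products bind Ccr7 on dendritic and naive T cells, held identical values with stage means of 5.01 ± 0.32 (SD, n = 3) in ASC-N, 4.92 ± 0.12 (SD, n = 3) in ASC-L and 5.06 ± 0.13 (SD, n = 3) in ASC-I. Of the 3 shared by the Ccl27 genes, ligands of Ccr10, the pair with identical values had stage means of 5.91 ± 0.13 (SD, n = 3), 5.86 ± 0.21 (SD, n = 3) and 5.98 ± 0.23 (SD, n = 3). The third had 6.50 ± 0.07 (SD, n = 3), 6.52 ± 0.21 (SD, n = 3) and 6.57 ± 0.23 (SD, n = 3), with ASC-L above ASC-N, unlike the pair.

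Pf4 and Ppbp are CXC chemokines of platelets and megakaryocytes whose genes lie beside Cxcl5 and Cxcl3 under other symbols. Pf4 had stage means of 6.68, 6.42 and 7.11 in ASC-N, ASC-L and ASC-I, and Ppbp of 6.16, 6.68 and 6.55, and 0 of the 2 were past the limits in any comparison. Like the mean of the macrophage list, Pf4 was lowest in ASC-N replicate 3 (4.61) and highest in ASC-I replicate 1 (8.08). Ppbp was highest in the second replicates of ASC-L (8.43) and ASC-I (7.90). Which cells held these transcripts was not tested.

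The 5 probe sets of Ccl19 had stage means of the gene between 5.24 and 5.30, and the 2 of Ccl25 were averaged to between 5.77 and 5.95.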
